A study of Homo sapiens with 4 samples.

Results

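SNRNP40 and 9 of its partners in the U5 and tri-snRNP particles were followed through SNRNP40 depletion in breast cancer cells. These 10 genes were chosen by symbol: SNRNP40, the gene targeted by the siRNAs, and the protein genes PRPF8, EFTUD2, SNRNP200, DDX23, PRPF6, TXNL4A, CD2BP2, PRPF31 and SNRNP27. All 10 were found, in 13 of 44578 listed transcripts, among 23217 gene symbols. The cells were LV-M100, a subclone of the breast cancer line MDA-MB-231 and so a single clone, and RNA was taken 48 h after transfection with Lipofectamine and depleted of ribosomal RNA. The 2 conditions compared were siControl and siSNRNP40. In siControl, replicate 1 received NC1 and replicate 2 the BLOCK-iT Fluorescent Oligo, so that each control library has its own oligonucleotide, and in siSNRNP40 replicate 1 received siSNRNP40 #1 and replicate 2 siSNRNP40 #2. The table gives 1 FPKM value per transcript and condition (fragments scaled by transcript length and by mapped fragments), with both libraries of a condition pooled. No value can therefore be given with an error, the knockdown by each siRNA cannot be separated, and no test was run between the conditions. The differences are descriptions of 2 pooled values each.

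The spliceosome removes introns from pre-mRNA and is built from small nuclear ribonucleoproteins, each an RNA with its proteins. The U5 particle holds the exons in the catalytic centre, and it joins the U4/U6 particle to form the tri-snRNP, which docks on pre-mRNA before the catalytic rearrangements. PRPF8 is the large scaffold of the active site, EFTUD2 is a GTPase bound to it, SNRNP200 is the helicase that unwinds U4 from U6, and SNRNP40 is a WD40-repeat protein of the same core. DDX23 is the helicase that helps to exchange U1 for U6 at the splice site, PRPF6 bridges U5 and U4/U6, TXNL4A is a small thioredoxin-fold protein, CD2BP2 is found on U5 before it enters the tri-snRNP, PRPF31 binds the U4 RNA, and SNRNP27 is a small protein with serine and arginine repeats.

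The siRNA strands are shown first, because they define where the SNRNP40 transcript was attacked. Read 5′ to 3′ as the labels give them, with capitals on the 7 bases that would pair with bases 2 to 8 of a guide strand that is the exact complement, they are as follows.
siSNRNP40 #1: ggaauagacaAUGAUAUc
siSNRNP40 #2: ggauuugaccGACUGAUa
In the canonical GENCODE transcript of SNRNP40 (ENSG00000060688, minus strand of chromosome 1, GRCh37) both strands occur once without a mismatch. With 6 transcript bases on either side and the target in capitals, the sites read as follows.
site of #1: tctggtGGAATAGACAATGATATCaaggtc
site of #2: tctgcaGGATTTGACCGACTGATAttactg
The first lies in exon 5 of 10, at chr1:31754224-31754241, and covers codons 212 to 217 of the 357 codons. The second lies in exon 2, at chr1:31766067-31766084, and covers codons 85 to 90. Both sites are coding, and G and C make up 6 of the 18 bases of #1 and 8 of the 18 of #2.

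SNRNP40 mRNA was strongly lower after depletion. Its single listed transcript (chromosome 1 of hg19, 31732415 to 31769644) had 40.4 FPKM in siControl and 6.12 FPKM in siSNRNP40, a log2 fold change of -2.72, or 6.60-fold lower. It was the 1 member past an absolute log2 fold change of 1, where 1.47% of the 12334 genes with a mean summed FPKM of at least 1 and signal in both conditions lay, and 0.657% were lower by that much. As the target of the siRNAs, SNRNP40 is the check of the knockdown, and its direction follows from the design. Of these genes, 1 was lower by more on the log2 scale, SNORD45C, a small nucleolar RNA gene named after its values were seen (7.25 and 0.999 FPKM). Among the 6394 genes with a mean of at least 10 FPKM, SNRNP40 was the lowest. Because cells were measured in bulk, fewer cells with SNRNP40 mRNA and less SNRNP40 mRNA per cell cannot be told apart.

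No measured gene within 100 kb of SNRNP40 was lower in siSNRNP40. ZCCHC17, whose listed transcript begins 198 bases away and which is annotated on the opposite strand, had 35.6 FPKM in siControl and 37.3 FPKM in siSNRNP40 (log2 fold change 0.069). FABP3, which encodes a fatty acid binding protein and lies 68456 bases away, had 2.27 and 3.18 FPKM (0.49), while NKAIN1 was listed at 0 in both conditions. The 3 genes outside the members, with a mean of at least 5 FPKM, whose log2 fold change lay nearest to that of SNRNP40 were LIPA, SNORD6 and NNMT. LIPA, the lysosomal acid lipase, had 24.9 and 6.09 FPKM (-2.03). SNORD6, a small nucleolar RNA, had 9.41 and 2.996 FPKM (-1.65), and NNMT, nicotinamide N-methyltransferase, had 26.7 and 8.77 FPKM (-1.60). The likeness rests on 2 pooled values per gene, and even the nearest of 8549 genes differed from SNRNP40 by 0.69 on the log2 scale.

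No partner was lower by an amount near that of SNRNP40. Of the 9 partners, 7 were higher and 2 lower in siSNRNP40, where 50.5% of all 12334 genes were higher. Their median log2 fold change was 0.072, against 0.0034 over all genes, and their median absolute log2 fold change was 0.153, against 0.170 over all genes. None of the 9 passed an absolute log2 fold change of 1, where 1.47% of all genes did, and all 10 members passed the filter on low values. One partner, SNRNP27, passed 0.5 (10.3% of all genes in either direction, 5.24% in the upward direction), and 2, SNRNP27 and DDX23, passed 0.25 (33.7% of all genes). With 9 genes, 1 gene more or fewer moves these counts widely. Among genes with a mean of at least 10 FPKM, a filter that all 9 partners passed and that was chosen after the values were seen, 4.96% passed 0.5 in either direction, 1.97% passed it upward and 25% passed 0.25. The FPKM of the 9 partners summed to 360.3 in siControl and 410.1 in siSNRNP40 (0.19). SNRNP27 alone held 31.0 of the 49.9 FPKM between these sums, and without it, a split added after the values were seen, the remaining 8 partners summed to 314.2 and 333.1 FPKM (0.084).

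**Figure D1:**
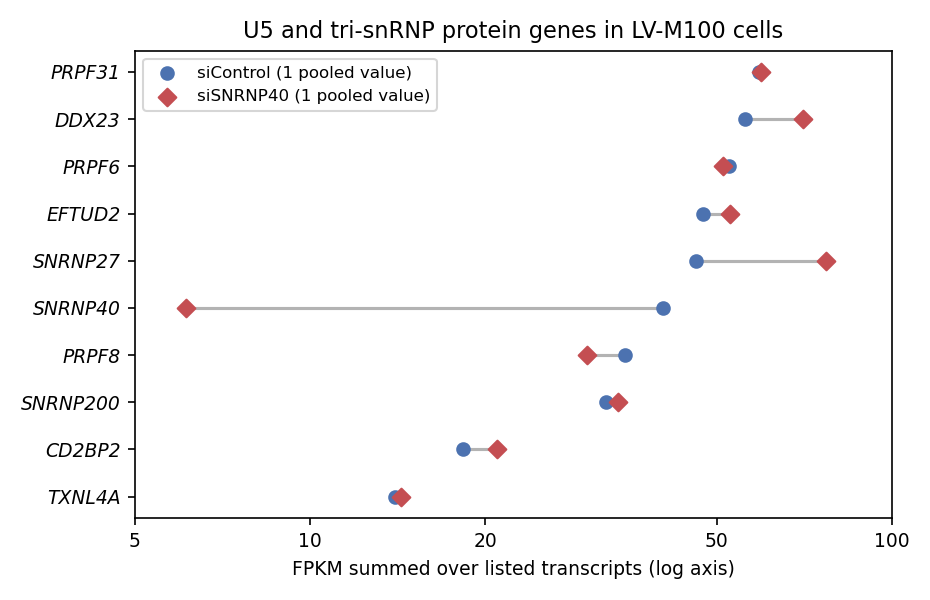
FPKM of the 10 genes on a log axis, summed over the listed transcripts, ordered by the siControl value, with circles for siControl and diamonds for siSNRNP40 (1 pooled value each, no error). SNRNP40 moves from 40.4 to 6.12 FPKM, SNRNP27 from 46.1 to 77.0 FPKM, and the remaining 8 pairs lie close together.

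Among the proteins of the U5 core, PRPF8 and EFTUD2 differed in sign. PRPF8, the scaffold of the active site, had 34.7 FPKM in siControl and 29.96 FPKM in siSNRNP40, a log2 fold change of -0.21, the lowest of the partners. In all, 20.1% of genes were as low or lower. EFTUD2, the GTPase, had 47.4 and 52.7 FPKM (0.15), and 27.6% of genes were as high or higher. Both differences lie inside the range from -0.50 to 0.51 between percentile 5 and percentile 95 of all genes, as did those of every partner but SNRNP27.

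The 2 helicases of the U5 particle were both slightly higher. SNRNP200, which unwinds U4 from U6, had 32.2 FPKM in siControl and 33.9 FPKM in siSNRNP40 (0.072). DDX23 had 56.0 and 70.5 FPKM (0.33), and 1392 of the 12334 genes (11.3%) were as high or higher. Among genes with a mean of at least 10 FPKM this was 5.61%.

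PRPF6 and TXNL4A showed little difference, and CD2BP2 was slightly higher. PRPF6, the bridge between U5 and U4/U6, had 52.5 FPKM in siControl and 51.3 FPKM in siSNRNP40 (-0.034). TXNL4A had 14.0 and 14.3 FPKM (0.036). CD2BP2, which leaves before the tri-snRNP forms, had 18.3 and 20.96 FPKM (0.20), and 22.5% of genes were as high or higher. TXNL4A and CD2BP2 were the least abundant of the 10 genes in siControl.

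The 2 remaining members, PRPF31 and SNRNP27, stood apart from each other. PRPF31 had 59.1 FPKM in siControl and 59.5 FPKM in siSNRNP40 (0.0088). Its listed locus is shared with TFPT, a neighbouring gene at 12.8 and 11.7 FPKM, and how fragments were divided between them was not tested. SNRNP27 had 46.1 and 77.0 FPKM, a log2 fold change of 0.74 or 1.67-fold higher. A difference as high or higher was seen in 255 of the 12334 genes (2.07%), and in 36 of the 6394 genes with a mean of at least 10 FPKM (0.563%). SNRNP27 was the highest of 9 partners, so that these shares describe a gene singled out after its value was seen.

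**Figure D2:**
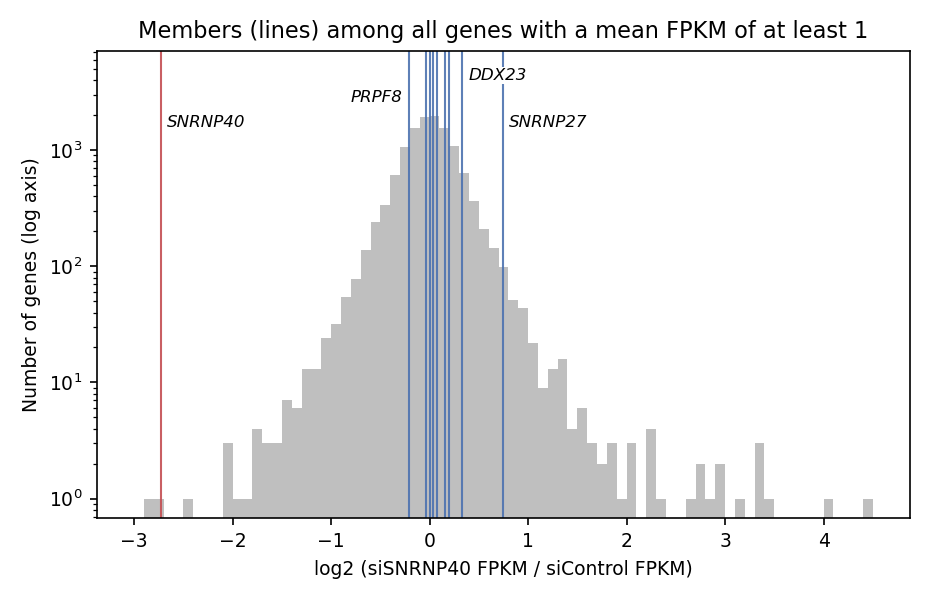
Histogram of the gene-level log2 fold change (siSNRNP40 over siControl) of the 12334 genes with a mean of at least 1 FPKM, with the number of genes on a log axis, a red line for SNRNP40 and blue lines for the 9 partners. SNRNP40 lies at the lower edge of the distribution, SNRNP27 at 0.74 on its upper shoulder, and the other 8 partners lie between -0.21 and 0.33.

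FPKM is scaled by transcript length, so the mRNA levels of these genes can be compared with each other. These libraries give no protein levels, so the amounts of the proteins in the particles are not known from them. In siControl the order from high to low was PRPF31, DDX23, PRPF6, EFTUD2, SNRNP27, SNRNP40, PRPF8, SNRNP200, CD2BP2 and TXNL4A, from 59.1 to 14.0 FPKM. SNRNP40 was thus in the middle of the group, at 0.877 of the median level of its partners (46.1 FPKM), and above PRPF8, with which it shares the U5 core. In siSNRNP40 the order was SNRNP27, DDX23, PRPF31, EFTUD2, PRPF6, SNRNP200, PRPF8, CD2BP2, TXNL4A and SNRNP40, from 77.0 to 6.12 FPKM. SNRNP40 was then the lowest, at 0.119 of the median of its partners (51.3 FPKM), and below TXNL4A. SNRNP27 moved from rank 5 to rank 1. With no spread between libraries, it cannot be said which neighbours in these orders differ. In siControl all 10 genes were above the median level of all genes tested (10.7 FPKM).

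Of the 10 genes, 7 have a single listed transcript and 3 have 2. The totals of those 7 do not depend on how fragments were divided among listed transcripts of the gene. How fragments of isoforms that are not listed were assigned was not tested. In SNRNP27 the more expressed transcript had 31.7 FPKM in siControl and 60.8 FPKM in siSNRNP40 (0.94), and the other had 14.3 and 16.2 FPKM (0.18). The first thus held 93.9% of the gene's 31.0 FPKM difference, and its share of the gene went from 68.9% to 79.0%. At the level of single transcripts 1 of the 11 member transcripts with a mean of at least 1 FPKM, that of SNRNP40, passed an absolute log2 fold change of 1, where 10.5% of all 16691 such transcripts did. EFTUD2 and CD2BP2 were carried almost wholly by 1 transcript each, with 98.6% and 99.0% of the gene's FPKM in siControl. Their minor transcripts were below 1 FPKM in both conditions, at 0.672 and 0.425 FPKM in EFTUD2 and 0.191 and 0.529 FPKM in CD2BP2.

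**Figure D3:**
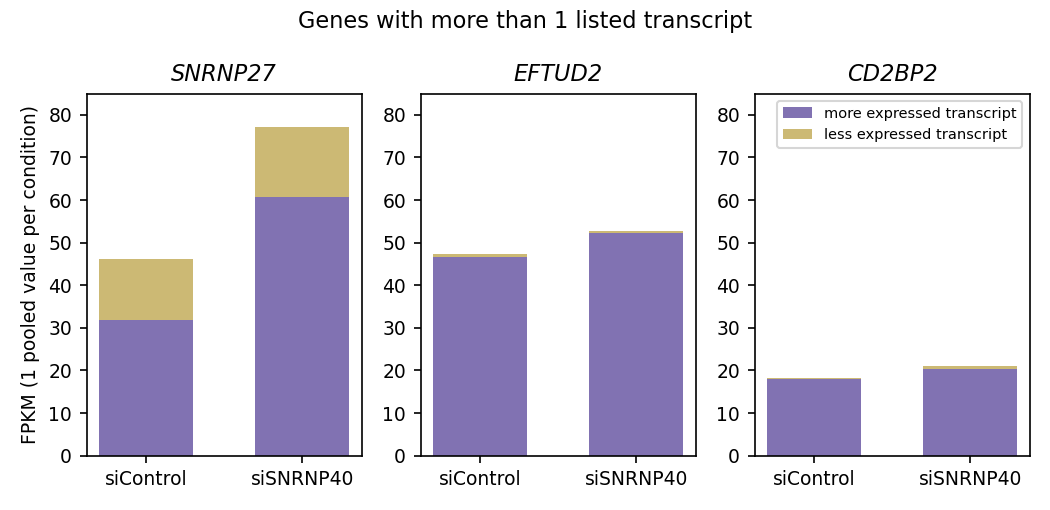
FPKM of both listed transcripts of SNRNP27, EFTUD2 and CD2BP2 in siControl and siSNRNP40, stacked from 0 with 1 pooled value per condition and no error. The bar of SNRNP27 grows from 46.1 to 77.0 FPKM, mostly in its more expressed transcript (31.7 to 60.8 FPKM), while minor transcripts of EFTUD2 and CD2BP2 are barely visible.

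The table names its transcripts only by assembly numbers, so the SNRNP27 isoform that was higher could not be identified. The annotation shows which isoforms are known, but the assembled transcripts were not matched to them and need not equal any of them. SNRNP27 (ENSG00000124380, plus strand of chromosome 2, 70121088 to 70132368 of GRCh37) has 5 annotated transcripts, and the canonical one has 6 exons and 155 codons. In 1 other annotated transcript the 65-base exon 5 (chr2:70130313-70130377) is skipped. Its splice sites in GRCh37 are shown because they border an exon by which SNRNP27 isoforms differ, with 20 intron bases before the exon, 6 after it, 3 exon bases at either end and the intron's terminal AG and GT in capitals.
acceptor of exon 5: tgtttattgtttttcttcAGggt
donor of exon 5: cagGTatgc
Among another 2 annotated transcripts, an 86-base intron of the last exon is spliced out. Its junction lies 120 bases after the end of the coding sequence of the canonical transcript. Whether both transcripts splice it out, and where their own coding sequences end, was not examined. Both are classed as targets of nonsense-mediated decay (the pathway that destroys mRNAs with a splice junction well downstream of the stop codon). Among the members, TXNL4A has 4 such annotated transcripts of 12, DDX23 5 of 23, EFTUD2 3 of 26 and PRPF8 1 of 22, and the table lists 1 or 2 transcripts for each. Shifts toward those isoforms were therefore not measured as such.

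The neighbourhood of SNRNP27 was examined after its value was seen. GMCL1, 14348 bases away, had 17.8 FPKM in siControl and 12.2 FPKM in siSNRNP40 (-0.55), and MXD1, a transcription factor gene 9805 bases away on the other side, had 2.86 and 2.82 FPKM (-0.022). ANXA4, an annexin gene 67479 bases away, had 36.7 and 33.8 FPKM (-0.12). None of these 3 was higher in siSNRNP40. Also listed within 100 kb, but below 1 FPKM in both conditions, were ASPRV1 (0 and 0.018 FPKM) and PCBP1-AS1 (0.518 and 0.262 FPKM).

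The partner transcripts were also searched for the siRNA strands themselves. Over the 9 canonical partner mRNAs the best ungapped match of either 18-base strand left 5 to 7 mismatches. The match of #1 in PRPF6 is shown because it includes the seed-pairing bases, with mismatched bases in capitals.
PRPF6, against #1: ggaGACATcaatgatatc
PRPF6 had 52.5 and 51.3 FPKM (-0.034). A site complementary to the seed of #1 (AUGAUAU) was held by PRPF8, DDX23, PRPF6 and SNRNP27, and by 17.9% of 19894 canonical coding mRNAs. A site for #2 (GACUGAU) was held by EFTUD2 and PRPF6, and by 14.1% of those mRNAs. The mRNAs differ in length, and the log2 fold changes of these 5 partners ran from -0.21 for PRPF8 to 0.74 for SNRNP27.

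Other proteins of the particles that U5 meets were grouped into 6 lists. All 44 of their genes were measured at a mean of at least 1 FPKM, and 26 were higher and 18 lower in siSNRNP40, with a median log2 fold change of 0.045. None passed 0.5, and 5 of 44 passed 0.25, against 10.3% and 33.7% of all genes. Of the 44, 39 had a mean of at least 10 FPKM, a level at which 4.96% of genes passed 0.5 and 25% passed 0.25. LSM8 was read from a row named NAA38 at the LSM8 locus, and AAR2 from its older symbol C20orf4.

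The list of 7 other tri-snRNP proteins held PRPF3, PRPF4, PPIH, NHP2L1, SART1, USP39 and SART3, and 5 were higher and 2 lower, with a median log2 fold change of 0.046. SART3 is a recycling factor of the U4/U6 particle rather than a lasting tri-snRNP protein, and without it 4 were higher and 2 lower of 6, with a median of 0.059. PRPF4, a WD40 protein of the U4/U6 particle, was the highest at 51.3 and 64.0 FPKM (0.32), and USP39, which is needed for the tri-snRNP to join, was the lowest at 45.6 and 38.7 FPKM (-0.24). The Sm proteins, which form the ring on the U5 and U4 RNAs, had 5 higher and 2 lower of 7 (median 0.069), from -0.22 for SNRPD1 to 0.22 for SNRPE. The LSm proteins, which form the ring on U6, had 4 higher and 3 lower of 7 (median 0.050), from -0.22 for LSM5 to 0.46 for LSM7, which had 31.9 and 43.7 FPKM.

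Of the 8 factors that help to assemble U5, 6 were higher and 2 lower (median 0.040). They ran from -0.23 for PIH1D1, a subunit of the R2TP chaperone complex, to 0.22 for ECD. AAR2, which holds PRPF8 before SNRNP200 binds, had 11.5 and 11.7 FPKM (0.031). Of 8 proteins that meet the tri-snRNP in the B complex, 2 were higher and 6 lower (median -0.047), from -0.28 for PRPF38A to 0.18 for UBL5. The U11/U12 proteins recognise the splice sites of minor introns and are not part of U5. Of these 7, 4 were higher and 3 lower (median 0.0023), from -0.31 for RNPC3 to 0.46 for SNRNP35, which had 14.9 and 20.6 FPKM. The partners' median of 0.072 lay above the medians of all 6 lists, by amounts that were not tested. The nearest of these medians was 0.069, for the Sm proteins. This order depends on SNRNP27, as was seen after its value was known. Without SNRNP27 the partners' median lies midway between TXNL4A (0.036) and SNRNP200 (0.072), below that of the Sm proteins.

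**Figure D4:**
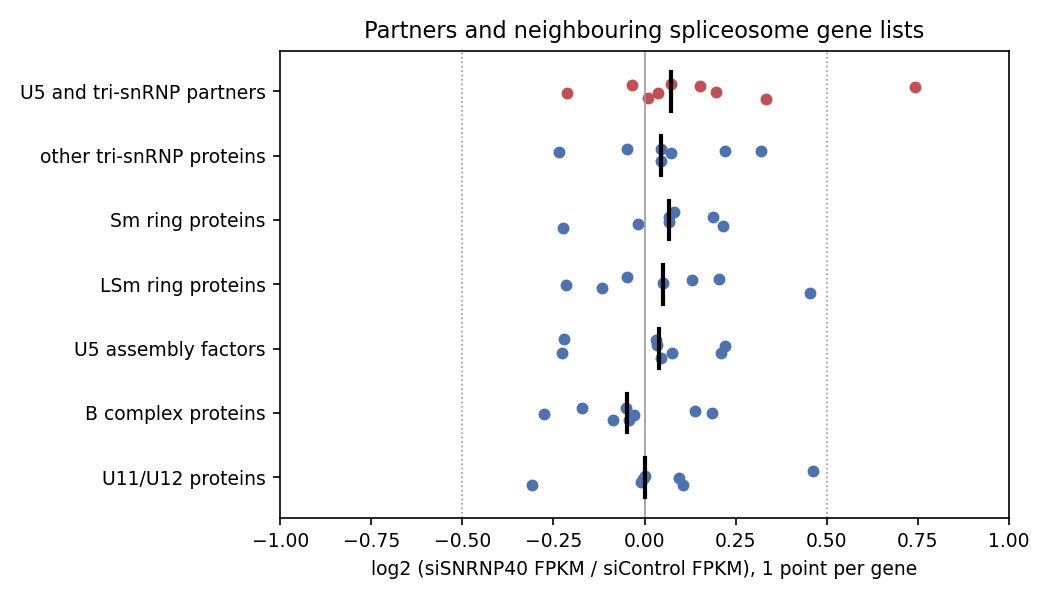
Log2 fold change (siSNRNP40 over siControl) of the 9 partners and of the genes of 6 other spliceosome lists, with 1 point per gene, a black bar at each median and dotted lines at -0.5 and 0.5. SNRNP27 at 0.74 is the single point beyond the dotted lines, and medians run from -0.047 to 0.072.

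The RNA partner of these proteins could not be followed. Of the U4, U5 and U6 snRNA symbols looked up, RNU5E-1 and RNU5F-1 are listed, but at loci that do not hold those genes in the annotation (RNU5E-1 is listed on chromosome 5 and annotated on chromosome 1), so their values are not given.

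The libraries had the markers of their line. VIM, CD44, EGFR, KRT8, KRT18 and MET lay between 18.3 and 750.1 FPKM in siControl and between 22.7 and 733.0 FPKM in siSNRNP40. ESR1, PGR and CDH1, which MDA-MB-231 cells lack, were below 0.1 FPKM in both conditions, the leukocyte marker PTPRC and the hepatocyte marker ALB were listed at 0, and the endothelial marker PECAM1 had 0.922 and 1.202 FPKM.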

How the data were processed

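RNA from 4 libraries of LV-M100 cells, 2 per condition, was analysed from the deposited transcript table. Per the methods and the submitters' processing notes, reads were trimmed (cutadapt 1.2.1), aligned to hg19 (TopHat2 2.0.8), and assembled and merged (Cufflinks), and conditions were compared with Cuffdiff 2.0.2. FPKM as deposited by the authors is scaled for transcript length and mapped fragments, and both libraries of a condition share 1 value. The authors' own comparison columns (log2 fold change, test statistic, p-value and q-value) were left aside. No read counts were used here, so depth is unknown.

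For each gene symbol the FPKM of its transcripts was added up, and log2 fold changes were taken as siSNRNP40 over siControl with no pseudocount, for genes with a mean of at least 1 FPKM and a value above 0 in both conditions. No test was run, and genes are described beside all 12334 genes with thresholds of 1, 0.5 and 0.25. Loci are given 1-based. The members, lists and thresholds were chosen with earlier results of these data known. Named are the 10 members, for each list genes past 0.5 and its highest and lowest gene, the 3 genes nearest to SNRNP40 in fold change and listed genes within 100 kb of SNRNP40. Others, such as AAR2, LSM8 and the neighbours of SNRNP27, were added after their values were seen. Annotation and sequences came from GENCODE release 44 mapped to GRCh37, which has the coordinates of hg19. SNRNP40 and TXNL4A each have 1 processed pseudogene annotated under their own symbol, and the reads these may take or give were not assessed. Pseudogenes of the members under other names were not searched for. Calculations used Python 3.11.15, numpy 2.4.6 and pandas 2.3.3, and the summing and calling were tested on simulated data.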

Additional observations from a re-analysis of the deposited data

How the results depend on the processing

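No paired analysis was possible because only pooled values per condition were given, with nothing to tell replicates apart. Leave-one-out values and a replicate block were not run for that reason. Without library values or read counts, the spread between libraries and the limits set by depth are unknown. The log2 fold change of SNRNP40, -2.72, was -2.54 with a pseudocount of 1 FPKM. Centring on the median of all genes (0.0034) and upper-quartile scaling (a log2 ratio of -0.025) shift all genes alike, and taking the most expressed transcript cannot move SNRNP40 or the 6 partners with 1 listed transcript, so these settings are no check of them. The median of the 9 partners, 0.072, was 0.070 with the pseudocount and 0.097 with upper-quartile scaling. That scaling took PRPF31 from 0.0088 to 0.034 and PRPF6 from -0.034 to -0.0091, so which of them differed least depends on it. The 1 member past an absolute log2 fold change of 1 became 2 at a threshold of 0.5, by construction. It was 1 in the other settings, including a minimum mean of 10 FPKM, which was chosen after the data were seen. The 1 member transcript past that threshold became 2 without a filter on low values, through the minor transcript of CD2BP2, and was 1 at a minimum of 5 FPKM and with the pseudocount. Among the 3 partners with 2 transcripts, SNRNP27 was 0.94 with its most expressed transcript in place of 0.74, EFTUD2 0.16 in place of 0.15 and CD2BP2 0.17 in place of 0.20. No partner changed sign in these 4 settings, but a pseudocount added to both conditions cannot change a sign. The shift by centring was smaller than the value of every partner, so it could not change a sign either. The additions made after the data were seen are given beside their results, the partners' sum and median without SNRNP27 and a list without SART3.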
